A study of Lathyrus oleraceus with 9 samples.

Results

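The last step of a short ageing series was examined in pea seeds (Pisum sativum cv Alaska Early), as the change in gene expression between 12 d and 15 d of artificial ageing. Its members were the 3 arrays of seeds aged for 15 d and the 3 arrays of seeds aged for 12 d, 6 of the 9 arrays of the series, and the other 3 came from seeds aged for 8 d. Seeds had been brought to a moisture content of 12% at 60% relative humidity and were then kept at 50°C in sealed bottles. On each 2-colour array, RNA from aged seeds was hybridised together with RNA from equilibrated, non-aged seeds of the same cultivar, so that every value compares aged with non-aged seeds as a log2 ratio. The 15 d and 12 d groups therefore differed, as far as the labels say, only in the time at 50°C. All of their seeds were ungerminated. The study judged the RNA used for arrays satisfactory, but reports that RNA integrity fell gradually with ageing. The groups could therefore also differ in RNA quality, and whether this contributed to the differences in expression was not tested. Each replicate was a pool of 20 whole seeds from material grown and harvested independently, and the dyes were exchanged on replicate 2.

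Dry seeds hold messenger RNA stored during maturation, much of it for storage proteins, translation and protection against desiccation, and this RNA is lost gradually as seeds age. Seeds aged at high temperature and moderate humidity pass through a phase with little loss of germination before viability falls, and transcripts measured in that phase can be set against later damage. A ratio gives no level of a transcript, so the labelled tissue could not be checked against the levels of seed markers. In whole seeds, fewer cells of a type and less RNA per cell cannot be told apart.

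All 5246 probes had a value on all arrays. Pearson's r across probes lay between 0.983 and 0.984 within the 15 d arrays, at 0.976 within the 12 d arrays, and between 0.958 and 0.962 for a 15 d array with a 12 d array. The median absolute deviation of the log2 ratios (MAD), a measure of the spread of an array, was between 0.445 and 0.460 on the 15 d arrays, against 0.400 on each 12 d array and 0.386 on each 8 d array. The slope of the 15 d means on the 12 d means was 1.14, and 1.01 once each array was divided by its own MAD and multiplied by the mean MAD of all arrays. The wider spread moved with ageing time and cannot be told apart from it, so counts and list medians are given as deposited and with the arrays divided by their MAD. The sources used here do not say whether the 3 ageing times had their non-aged RNA in common.

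As deposited, 1270 of 5246 probes (24.2%) differed between 15 d and 12 d at an adjusted p under 0.05 in limma, with 634 higher (12.1%) and 636 lower (12.1%) at 15 d. On 1245 of them, the 3 arrays of 15 d and the 3 of 12 d did not overlap, which held for 37% of all probes. With arrays divided by their MAD, 614 probes (11.7%) passed, 305 higher (5.81%) and 309 lower (5.89%), and 31.6% of all probes had no overlap. In both scalings, 549 probes passed in the same direction, 276 higher (5.26%) and 273 lower (5.2%). They were 43.2% of the calls as deposited and 89.4% of those with MAD scaling, and 0 probes passed in opposite directions. Below, a probe is said to have risen or fallen where it passed as deposited, and its value with MAD scaling is given beside it where the call was lost. The median SE of a difference was 0.0608 on the log2 scale. In simulated arrays of the same layout, 74% of differences of 0.3 in size and 28% of those of 0.2 were recovered, so that small differences could be missed. A smaller share of probes was changed there than was called here. Since the adjustment of p depends on that share, these rates do not carry over to the present arrays.

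Most differences carried on in the direction already taken at 12 d. Of the 1270 probes, 1019 (80.2%) lay further from 0 at 15 d than at 12 d, of which 521 were higher and 498 lower, and 251 moved back towards 0 or past it. With MAD scaling the numbers were 336 further and 278 back. The large differences were mainly downward, since 47 of the 59 probes that passed with a difference of at least 0.5 in size were lower at 15 d. The median over all 5246 differences was 0.01. Each array had been normalised to a median near 0, so a rise or fall common to all transcripts would not show in these counts.

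The 8 d arrays took no part in the difference, and grouping all probes by their 8 d ratio showed a widening on both sides. Among the 235 probes with a log2 ratio of at most -1 at 8 d, the median difference between 15 d and 12 d was -0.24, and 154 fell while 2 rose. Among the 129 probes above 1 at 8 d the median was 0.14, with 57 that rose and 7 that fell. For the 1322 probes between -0.25 and 0, the median was 0.01. With MAD scaling the medians became -0.07 for the lowest group and 0.00 for the highest, and in the highest group 22 probes then fell and 10 rose.

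**Figure D1:**
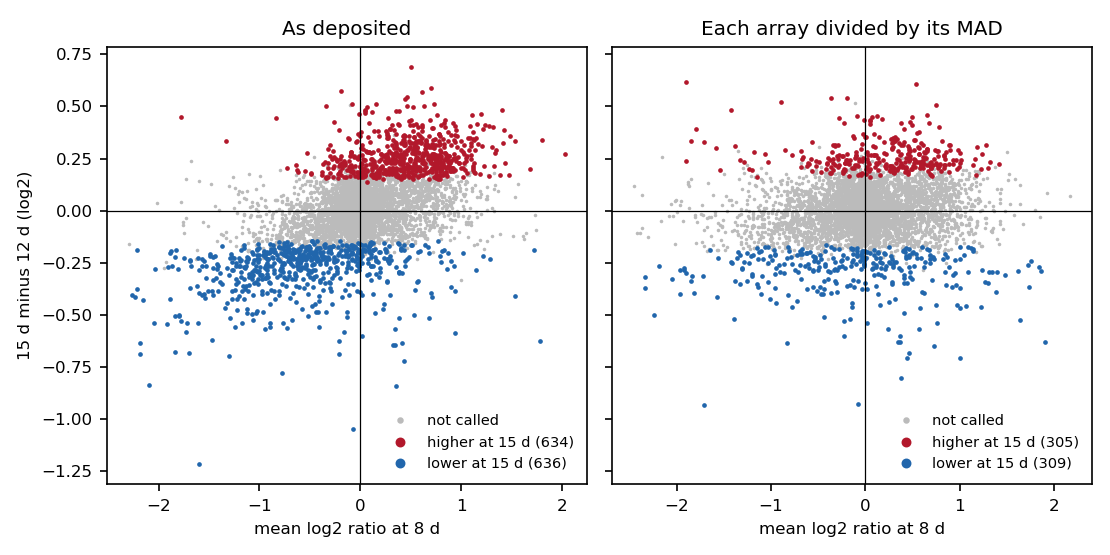
Each point is 1 of 5246 probes, with its mean log2 ratio at 8 d on the x axis and the difference 15 d minus 12 d on the y axis, as deposited (left) and with each array divided by its MAD (right). Coloured probes passed an adjusted p under 0.05, and the tilt of the cloud on the left, with 634 higher and 636 lower, is smaller on the right, with 305 and 309.

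The largest falls of all probes were those of a pair of seed proteins of the vicilin type. A sucrose-binding protein (PSOLI00636), a seed protein related to the vicilin storage globulins, had log2 ratios of -2.80, -2.92 and -2.80 at 15 d, against -1.66, -1.59 and -1.62 at 12 d. It fell by 1.22 (SE 0.059, adjusted p = 8.2e-09). The mean at 8 d had been -1.60, close to that of 12 d. Convicilin (PSOLI00637), a storage globulin of pea cotyledons, had -1.36, -1.35 and -1.41 at 15 d, against -0.31, -0.38 and -0.28 at 12 d. It fell by 1.05 (SE 0.054, adjusted p = 1.1e-08), and on the arrays of 8 d it had been at 0.00, -0.11 and -0.11. For both proteins the 15 d arrays lay far below all others, and with MAD scaling the differences were -0.93 and -0.93.

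Among the 491 listed probes with an informative product name, the other 8 of the 10 largest falls were of varied function. Elongation factor 1-alpha, which brings aminoacyl-tRNA to the ribosome, fell on a pair of probes. PSOLI01474 had log2 ratios of -3.24, -3.20 and -3.20 at 15 d, against -2.33, -2.34 and -2.46 at 12 d, and the probe fell by 0.84 (SE 0.057, adjusted p = 4.2e-07). On PSOLI02752 the ratios were -2.70, -2.67 and -2.66 at 15 d, against -1.92, -1.98 and -2.09 at 12 d, and it fell by 0.68 (SE 0.055, adjusted p = 2.8e-06). All 3 arrays of 15 d were below those of 12 d on both probes. The translationally controlled tumour protein homologue (PSOLI04617), a conserved and abundant protein linked to growth, was at -1.44, -1.47 and -1.53 at 15 d, against -0.90, -0.61 and -0.59 at 12 d. It fell by 0.78 (SE 0.086, adjusted p = 2.4e-05), and replicate 1 was the lowest of its 12 d arrays. P24 oleosin (PSOLI04150), a coat protein of oil bodies, had -1.77, -1.62 and -1.83 at 15 d, against -1.17, -0.99 and -0.97 at 12 d, and fell by 0.70 (SE 0.069, adjusted p = 9.8e-06).

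S-adenosylmethionine synthetase 1 (PSOLI00486), which makes the main methyl donor of the cell, stood at -2.96, -2.99 and -2.95 at 15 d, against -2.20, -2.36 and -2.28 at 12 d, and fell by 0.69 (SE 0.058, adjusted p = 3.0e-06). The large subunit of 3-isopropylmalate dehydratase (PSOLI00330), an enzyme of leucine synthesis, was at -2.99, -2.88 and -2.96 at 15 d, against -2.42, -2.19 and -2.32 at 12 d, and fell by 0.63 (adjusted p = 1.3e-05). At 8 d these probes had been at -2.18 and -2.19, and at 15 d they had the lowest means of all probes after elongation factor 1-alpha on PSOLI01474. An XAP5 family protein (PSOLI02416) had -1.93, -2.01 and -1.95 at 15 d, against -1.40, -1.23 and -1.40 at 12 d, and fell by 0.62 (adjusted p = 1.8e-05). The dehydration-responsive protein RD22 (PSOLI04742), a relative of an Arabidopsis gene induced by drought, was the only one of these 10 with a ratio above 0. Its log2 ratios were 0.38, 0.61 and 0.48 at 15 d, against 1.01, 1.31 and 1.05 at 12 d, and it fell by 0.63 (SE 0.10, adjusted p = 0.00037).

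**Figure D2:**
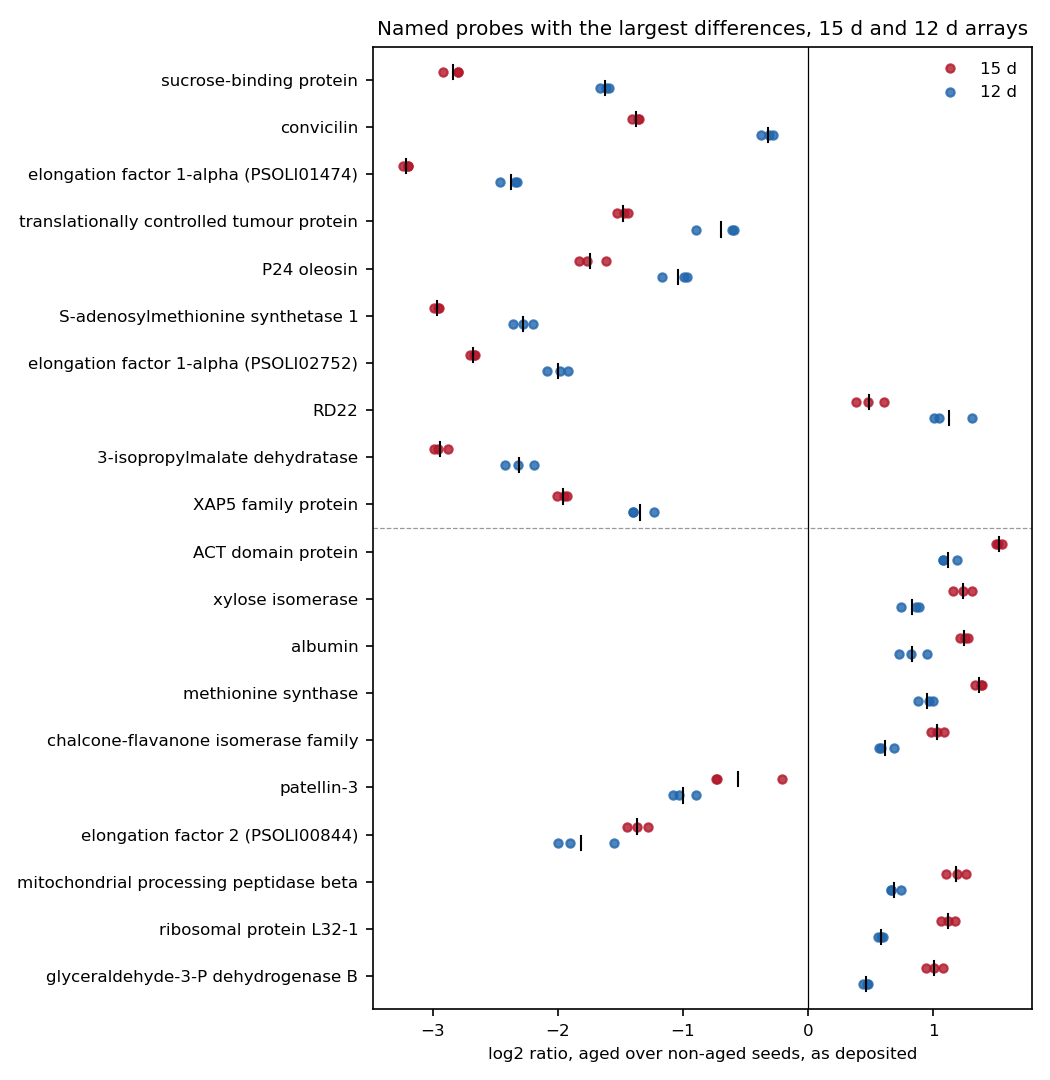
Log2 ratios (aged over non-aged), as deposited, on the 3 arrays of 15 d (red, upper) and the 3 of 12 d (blue, lower), with the group mean as a bar, for the 10 named probes with the largest falls (above the dashed line) and the 10 with the largest rises. No 15 d array overlapped the 12 d arrays of its probe, and the largest fall, that of the sucrose-binding protein, was -1.22 against 0.55 for the largest rise.

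The largest rises of named probes were smaller, and 8 of the 10 were of transcripts that were above 0 already at 12 d. Names exist only for probes whose ratio reached a size of 1 at some ageing time, so named rises and falls are a selected set. On the first 3 probes given here, only the 15 d mean reached that size. Glyceraldehyde-3-phosphate dehydrogenase B of the chloroplast (PSOLI00908), an enzyme of photosynthetic carbon fixation, had log2 ratios of 1.01, 0.94 and 1.08 at 15 d, against 0.47, 0.44 and 0.48 at 12 d. It rose by 0.55 (SE 0.059, adjusted p = 1.9e-05), and its mean at 8 d had been 0.47. The 60S ribosomal protein L32-1 (PSOLI04324), of the large ribosomal subunit, was at 1.12, 1.06 and 1.17 at 15 d, against 0.56, 0.60 and 0.58 at 12 d, a rise of 0.54 (SE 0.069, adjusted p = 8.1e-05). The beta subunit of the mitochondrial processing peptidase (PSOLI01338), which cuts the targeting sequence from imported proteins, had 1.10, 1.26 and 1.19 at 15 d, against 0.66, 0.66 and 0.74 at 12 d, a rise of 0.50 (SE 0.066, adjusted p = 9.8e-05). The lowest 15 d array stood 0.46, 0.46 and 0.36 above the highest 12 d array on these 3 probes.

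The 5 smallest of these 10 rises lay between 0.41 and 0.42. The chalcone-flavanone isomerase family probe (PSOLI01777), of flavonoid synthesis, rose by 0.42 (adjusted p = 9.3e-05). Methionine synthase (PSOLI04228), the methyltetrahydropteroyltriglutamate-dependent enzyme that completes methionine synthesis, rose by 0.42 (adjusted p = 0.00015). An albumin (PSOLI04531), a seed protein, rose by 0.41 (adjusted p = 0.00019). The probe of xylose isomerase (PSOLI02387), which interconverts xylose and xylulose, rose by 0.41 (adjusted p = 0.00020), and that of an ACT domain protein (PSOLI02340), which carries a domain that binds small regulatory molecules, by 0.41 (adjusted p = 9.1e-05). With MAD scaling these 5 rises lay between 0.25 and 0.32, and each kept its call.

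The other 2 of the 10 rises were of transcripts that stayed below 0. An elongation factor 2 (PSOLI00844), which moves the ribosome along the messenger RNA, had -1.45, -1.37 and -1.28 at 15 d, against -1.55, -2.00 and -1.90 at 12 d, a rise of 0.45 (SE 0.12, adjusted p = 0.013). The groups did not overlap, but the call was lost without 12 d replicate 2 (0.36, adjusted p = 0.070), 12 d replicate 3 (0.41, adjusted p = 0.052) or 15 d replicate 3 (0.41, adjusted p = 0.051). Patellin-3 (PSOLI03735), of a family of lipid-transfer proteins of membrane traffic, had -0.73, -0.74 and -0.21 at 15 d, against -0.90, -1.08 and -1.03 at 12 d, a rise of 0.44 (SE 0.11, adjusted p = 0.0078). One 15 d array, replicate 3, stood apart at -0.21, and without it the difference was 0.27 (adjusted p = 0.016).

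The study named products for 717 probes, which it had picked from these same arrays because their ratio reached a size of 1 on the log2 scale at some ageing time. Counts in the lists below are therefore no independent evidence of a direction, and several probes can share a product name. The counts with MAD scaling can include probes that did not pass as deposited. Over all 717, 180 rose and 276 fell, with a median difference of -0.09, and 50 rose and 95 fell in both scalings. Of the 387 that were below 0 at 8 d, 258 fell and 3 rose, with a median of -0.23, which MAD scaling reduced to -0.08. Of the 330 above 0 at 8 d, 177 rose and 18 fell, with a median of 0.19, or 0.05 with MAD scaling.

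Seed storage and maturation proteins fell in 10 of 17 probes and rose in 4, with a median difference of -0.28. With MAD scaling the median was -0.29, and 10 fell and 1, the albumin above, rose. The near-equal medians do not mean that each difference was kept, since at 15 d the list had 8 probes above 0 and 9 below. MAD scaling made falls below 0 smaller (sucrose-binding protein, -1.22 to -0.93) and falls above 0 larger (provicilin B, -0.28 to -0.46). In both scalings 8 fell. Beside the 3 already described (sucrose-binding protein, convicilin and P24 oleosin), a protease inhibitor/seed storage/lipid transfer family protein (PSOLI04349) had -1.32, -1.43 and -1.51 at 15 d, against -0.86, -0.90 and -0.79 at 12 d, and fell by 0.57 (adjusted p = 1.3e-05). Storage globulins did not move as a block. Provicilin of type B (PSOLI04635) was far above 0 and had 1.55, 1.47 and 1.49 at 15 d, against 1.63, 1.83 and 1.90 at 12 d, and fell by 0.28 (adjusted p = 0.0055), while the provicilin type A probes, which were below 0, fell by 0.38 (adjusted p = 7.2e-05) on PSOLI02231 and by 0.30 (adjusted p = 0.0083) on PSOLI02195. The second of these was -0.18 with MAD scaling and lost its call. Of the legumins, the other main storage globulins, legumin K (PSOLI04995) rose by 0.39 (adjusted p = 0.019) and legumin B (PSOLI02001) by 0.23 (adjusted p = 0.019). These 2 rises were 0.18 and 0.11 with MAD scaling and lost their calls. As deposited, legumin K lost its call without 12 d replicate 1 (0.28, adjusted p = 0.10), 15 d replicate 1 (0.38, adjusted p = 0.052) or 15 d replicate 2 (0.37, adjusted p = 0.054), and legumin B without 12 d replicate 1 (0.16, adjusted p = 0.096) or 15 d replicate 3 (0.19, adjusted p = 0.083). The legumin J probes, also above 0, had differences of -0.33 (adjusted p = 0.096) on PSOLI04996 and -0.09 (adjusted p = 0.31) on PSOLI04998 as deposited, and of -0.46 (adjusted p = 0.047) and -0.29 (adjusted p = 0.0069) with MAD scaling. The first passed as deposited without 12 d replicate 2 (-0.53, adjusted p = 0.0062).

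Among 57 cytosolic ribosomal protein probes, 34 fell and 9 rose. All that fell were below 0 at 12 d and all that rose were above it, and the median ratio of the list was -1.18 at 15 d, against -0.95 at 12 d. The median difference was -0.19, and -0.07 with MAD scaling, where 8 fell and 1 rose. In both scalings the falls with the largest differences were L22-2 of the 60S subunit (PSOLI04765, -0.47) and S3-2 and S13 of the 40S subunit (PSOLI04042, -0.42, and PSOLI04289, -0.42). The S13 probe had -1.26, -1.31 and -1.33 at 15 d, against -0.91, -0.86 and -0.87 at 12 d. The single rise in both scalings was the L32-1 described above, the largest difference of the list in either direction. Of the 6 ribosomal proteins of plastids and other organelles, S21 (PSOLI05120) fell in both scalings, by 0.39 (adjusted p = 0.00012) as deposited, and its difference was -0.26 with MAD scaling. The proteins S13 (PSOLI00824, -0.25), L24 (PSOLI01096, -0.23) and L13 (PSOLI02080, -0.20) fell as deposited alone, with MAD-scaled differences of -0.11, -0.13 and -0.09. L13 lost its call without 12 d replicate 2 (-0.17, adjusted p = 0.065) or 15 d replicate 3 (-0.17, adjusted p = 0.061). S18 (PSOLI00265), the only one above 0, had a difference of -0.11 (adjusted p = 0.13), and of -0.31 (adjusted p = 0.0018) with MAD scaling, and L3-2 (PSOLI03864) one of -0.06 (adjusted p = 0.45).

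Translation factors were divided, with 10 falls and 5 rises in 22 probes and a median of -0.10, or -0.02 with MAD scaling, where 3 fell and 3 rose. Probes with the same product name went opposite ways. Beside the 2 elongation factor 1-alpha probes that fell the most, PSOLI02555 had 0.78, 0.85 and 0.66 at 15 d, against 0.92, 0.99 and 0.99 at 12 d and fell by 0.20 (adjusted p = 0.017), whereas PSOLI03999 had 0.98, 1.17 and 1.04 at 15 d, against 0.80, 0.77 and 0.62 at 12 d and rose by 0.33 (adjusted p = 0.0014). The call of PSOLI02555 was lost without 12 d replicate 2 (-0.19, adjusted p = 0.052), 12 d replicate 3 (-0.19, adjusted p = 0.053) or 15 d replicate 3 (-0.15, adjusted p = 0.086). For elongation factor 2, where PSOLI00844 rose, PSOLI03982 fell by 0.43 (adjusted p = 0.0018), PSOLI04762 fell by 0.38 (adjusted p = 0.0019) and PSOLI04741 fell by 0.26 (adjusted p = 0.0026), and PSOLI04147 had a difference of 0.06 (adjusted p = 0.51). The 3 falls were -0.13, -0.08 and -0.13 with MAD scaling and lost their calls. Whether probes of one product name read separate transcripts is not known from the files. Of the tRNA synthetases, which charge transfer RNA with amino acids, valyl-tRNA synthetase (PSOLI01871) rose by 0.23 (adjusted p = 0.0096), or 0.10 with MAD scaling without a call, and PSOLI00042 of the glutaminyl enzyme had a difference of 0.05 (adjusted p = 0.66) and PSOLI00109 of the lysyl enzyme one of -0.08 (adjusted p = 0.67).

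Chaperones fell in 8 of 16 probes and rose in 2, with a median of -0.26, or -0.08 with MAD scaling, where 3 fell and 0 rose. These 3 were 2 small heat shock proteins, which hold unfolded proteins in solution, and a DnaJ co-chaperone of HSP70. The class I small heat shock protein (PSOLI02041), had -1.18, -1.21 and -1.18 at 15 d, against -0.64, -0.62 and -0.63 at 12 d, so that its highest 15 d array lay 0.54 below the lowest 12 d array, and it fell by 0.56 (SE 0.052, adjusted p = 6.1e-06). The class II small heat shock protein (PSOLI02110) fell by 0.38 (adjusted p = 0.00016), and DnaJ 3 (PSOLI01557) fell by 0.31 (adjusted p = 0.00055). Of the probes that rose, the larger difference was that of another DnaJ family protein (PSOLI01063), with 0.31 (adjusted p = 0.00067), or 0.16 with MAD scaling without a call.

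Of the machinery of protein degradation, proteasome subunits fell in 6 of 9 probes and rose in 2, with a median of -0.27, and ubiquitin, conjugating enzymes and ligases fell in 11 of 22 and rose in 5, with a median of -0.15. With MAD scaling 3 of each fell and 0 rose, and the medians were -0.15 and -0.05. RPT6a (PSOLI04296), an ATPase of the regulatory particle, had -1.70, -1.77 and -1.73 at 15 d, against -1.29, -1.21 and -1.22 at 12 d, and fell by 0.49 (adjusted p = 7.2e-05). The catalytic-core subunit PBA1 (PSOLI00605) fell by 0.35 (adjusted p = 0.00031). A ubiquitin probe (PSOLI03835) had -1.49, -1.59 and -1.47 at 15 d, against -0.95, -1.01 and -1.02 at 12 d, and fell by 0.52 (adjusted p = 4.0e-05), while the other 3 ubiquitin probes, all above 0, did not pass. PSOLI05050 had a difference of -0.06 (adjusted p = 0.43), or -0.18 (adjusted p = 0.036) with MAD scaling, PSOLI04735 one of 0.10 (adjusted p = 0.36) and PSOLI04506 one of 0.10 (adjusted p = 0.17). A Kelch repeat F-box protein (PSOLI00919), of a family of ubiquitin ligase subunits, fell by 0.36 (adjusted p = 0.00066).

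Most proteases did not pass, with 2 rises and 1 fall in 11 probes and a median of 0.01, or 0.02 with MAD scaling, where 1 fell and 1 rose. ClpC (PSOLI00860), the ATP-binding chaperone of a plastid protease, had -2.00, -2.08 and -2.01 at 15 d, against -1.52, -1.46 and -1.48 at 12 d, and fell by 0.54 (adjusted p = 6.1e-06). At 8 d it had been at -1.92, so that its highest ratio was that of 12 d. Leucine aminopeptidase 2 (PSOLI00968), which removes amino-terminal residues, rose by 0.36 (adjusted p = 0.00034). The cysteine proteinase RD21 (PSOLI04472) had been at 1.73 at 8 d, and was at 0.09 at 15 d and 0.11 at 12 d, with a difference of -0.02 (adjusted p = 0.88).

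Antioxidant enzymes and thiol redox proteins fell in 5 of 16 probes and rose in 3, with a median of -0.09, or -0.03 with MAD scaling, where 3 fell and 0 rose. A peroxidase (PSOLI00944), of the enzymes that use hydrogen peroxide as oxidant, had -1.74, -1.58 and -1.62 at 15 d, against -1.27, -1.30 and -1.21 at 12 d, and fell by 0.39 (adjusted p = 0.00019). The monothiol glutaredoxin S15 (PSOLI01145), which acts with glutathione in mitochondria, had -1.10, -0.96 and -1.10 at 15 d, against -0.66, -0.65 and -0.71 at 12 d, and fell by 0.38 (adjusted p = 0.00018). A glutathione-dependent formaldehyde dehydrogenase (PSOLI05002) had 0.69, 0.63 and 0.66 at 15 d, against 0.85, 0.90 and 0.80 at 12 d, and fell by 0.19 (adjusted p = 0.017), after a mean of 1.72 at 8 d. Its call was lost without 12 d replicate 2 (-0.17, adjusted p = 0.067) or 15 d replicate 2 (-0.17, adjusted p = 0.062).

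In carbon metabolism the direction differed between lists. Of 8 probes of the tricarboxylic acid cycle and the pyruvate dehydrogenase complex, which burn pyruvate in mitochondria, 6 rose and 1 fell. The 6 were the members above 0, and the list had a median of 0.23. With MAD scaling the median was 0.10, and 1 probe passed, the aconitase called cytoplasmic (PSOLI03775), which had 1.31, 1.46 and 1.50 at 15 d, against 1.08, 1.06 and 1.08 at 12 d, a rise of 0.35 (SE 0.056, adjusted p = 0.00043). Glycolytic enzymes rose in 3 of 13 probes and fell in 3, with a median of 0.05, or 0.01 with MAD scaling, where 2 fell and 2 rose. This list includes the chloroplast glyceraldehyde-3-phosphate dehydrogenase B described above, of photosynthetic carbon fixation, which was 1 of the 2 rises with MAD scaling. Enolase (PSOLI04156) had -1.78, -2.02 and -1.94 at 15 d, against -1.45, -1.37 and -1.31 at 12 d, and fell by 0.54 (adjusted p = 4.1e-05). Cytosolic glyceraldehyde-3-phosphate dehydrogenase (PSOLI04285) fell by 0.42 (adjusted p = 0.00021), opposite to the chloroplast B subunit described above. A phosphoglycerate mutase (PSOLI03095) rose by 0.32 (adjusted p = 0.00032).

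Enzymes of sucrose and galactinol use fell in 4 of 6 probes, with a median of -0.21, and MAD scaling brought it to -0.07, where 1 fell and 0 rose. UDP-glucose 4-epimerase, which makes UDP-galactose, fell by 0.39 (adjusted p = 0.00018) on PSOLI00615 and by 0.21 (adjusted p = 0.017) on PSOLI00807. Galactinol synthase (PSOLI04962), which starts the synthesis of raffinose sugars, fell by 0.27 (adjusted p = 0.0038), and a glycosyl transferase of trehalose metabolism (PSOLI00835) fell by 0.21 (adjusted p = 0.016). With MAD scaling these 4 differences were -0.17, -0.06, -0.08 and -0.01, and their calls were lost. As deposited, PSOLI00807 lost its call without 15 d replicate 1 (-0.20, adjusted p = 0.053) or 15 d replicate 2 (-0.19, adjusted p = 0.069), and PSOLI00835 without 12 d replicate 1 (-0.18, adjusted p = 0.062) or 15 d replicate 1 (-0.17, adjusted p = 0.074). The second probe of trehalose metabolism (PSOLI00656) had a difference of -0.19 (adjusted p = 0.10) and passed without 12 d replicate 3 (-0.28, adjusted p = 0.015), and sucrose synthase (PSOLI04390), which cleaves sucrose, one of -0.11 (adjusted p = 0.19), or -0.24 (adjusted p = 0.0084) with MAD scaling.

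Respiratory chain proteins and mitochondrial carriers fell in 7 of 12 probes and rose in 2, with a median of -0.22, or -0.09 with MAD scaling, where 4 fell and 2 rose. The ADP,ATP carrier (PSOLI00646), which exchanges ADP and ATP across the inner membrane, had -2.42, -2.28 and -2.35 at 15 d, against -1.77, -1.71 and -1.82 at 12 d, and fell by 0.58 (SE 0.057, adjusted p = 7.8e-06). A pair of import translocase subunits of the inner membrane fell too, PSOLI00852 by 0.47 (adjusted p = 2.4e-05) and PSOLI03956 by 0.30 (adjusted p = 0.00088), while the beta subunit of the processing peptidase rose. Among the 10 probes that the study headed as mitochondrial genes of programmed cell death, 5 rose and 3 fell, with a median of 0.15, or 0.09 with MAD scaling, where 1 fell and 2 rose. The rises in that group included the aconitase above, and its fall with the largest difference was the ADP,ATP carrier.

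Amino acid and methyl group metabolism fell in 9 of 19 probes and rose in 5, with a median of -0.16, or -0.02 with MAD scaling, where 4 fell and 4 rose. The steps of the methyl cycle did not move together. S-adenosylmethionine synthetase 1 and adenosylhomocysteinase (PSOLI04530), which clears the product of methyl transfer, fell. The second had -1.91, -1.97 and -1.92 at 15 d, against -1.37, -1.35 and -1.41 at 12 d, and fell by 0.56 (adjusted p = 2.0e-05). A second probe of the synthetase (PSOLI04879) fell by 0.40 (adjusted p = 0.00020). Methionine synthase on PSOLI04228 had 1.33, 1.39 and 1.38 at 15 d, against 0.97, 1.00 and 0.88 at 12 d and rose, while its second probe PSOLI00936, below 0, had a difference of -0.17 (adjusted p = 0.18) and passed without 12 d replicate 3 (-0.28, adjusted p = 0.029) or 15 d replicate 1 (-0.27, adjusted p = 0.047).

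Cytoskeletal proteins fell in 6 of 14 probes and rose in 2, with a median of -0.25, or -0.08 with MAD scaling, where 3 fell and 1 rose. In both scalings 3 fell and 0 rose. Actin-7 (PSOLI04417) had -2.15, -2.11 and -2.08 at 15 d, against -1.68, -1.60 and -1.54 at 12 d, and fell by 0.51 (adjusted p = 1.6e-05), and actin-66 (PSOLI00918) and actin-depolymerizing factor 2 (PSOLI02409), which severs actin filaments, fell by 0.38 (adjusted p = 9.6e-05) and by 0.35 (adjusted p = 0.00072). In small GTPases and vesicle traffic 9 of 20 fell and 3 rose, with a median of -0.17, or -0.05 with MAD scaling, where 3 fell and 1 rose. ADP-ribosylation factor 2 (PSOLI04253), which recruits vesicle coats, had -1.61, -1.58 and -1.61 at 15 d, against -1.11, -1.07 and -1.01 at 12 d, and fell by 0.54 (adjusted p = 6.1e-06). The Rab GDP dissociation inhibitor (PSOLI00760), which recycles Rab GTPases, fell by 0.51 (adjusted p = 2.4e-05), a transmembrane 9 protein (PSOLI00864) fell by 0.34 (adjusted p = 0.00020), and a Rab GTPase activator (PSOLI00314) rose by 0.37 (adjusted p = 0.0031).

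Histones and histone deacetylases fell in 7 of 12 probes and rose in 1, with a median of -0.23, or -0.12 with MAD scaling, where histone H3 (PSOLI00150) alone passed. It had -1.37, -1.31 and -1.33 at 15 d, against -0.96, -0.99 and -1.02 at 12 d, and fell by 0.35 (adjusted p = 0.00018). Transcription factors fell in 5 of 13 probes and rose in 2, with a median of -0.19, or -0.02 with MAD scaling, where 1 fell and 1 rose. NAC29 (PSOLI00791), of a plant family that includes regulators of senescence, had -1.15, -1.48 and -1.34 at 15 d, against -0.83, -0.86 and -0.77 at 12 d, and fell by 0.50 (adjusted p = 0.00016), whereas a MYB protein (PSOLI01092) had 1.13, 1.10 and 1.07 at 15 d, against 0.74, 0.76 and 0.80 at 12 d, a rise of 0.33 (adjusted p = 0.00079). Calcium signalling proteins and kinases rose in 4 of 12 probes and fell in 3, with a median of 0.12, or 0.08 with MAD scaling, where 2 fell and 2 rose. In both scalings 2 fell and 0 rose. The kinase APK1B (PSOLI00380) fell by 0.51 (adjusted p = 0.00030).

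Genes of stress and cell death were mixed in direction. Of the 13 probes that the study headed as proposed or known regulators of programmed cell death, 3 rose and 5 fell, with a median of 0.02. With MAD scaling the median was -0.03, RD22 and Bax inhibitor 1 fell, and 0 rose. Bax inhibitor 1 (PSOLI01240), a membrane protein of the endoplasmic reticulum that restrains cell death, had 0.74, 0.77 and 0.81 at 15 d, against 1.03, 1.03 and 0.96 at 12 d. It had been at 0.46 at 8 d, and between the last 2 times it fell by 0.23 (SE 0.051, adjusted p = 0.0035). Of the other endoplasmic reticulum stress probes, the chaperone BiP2 (PSOLI03407) had 1.07, 1.07 and 1.01 at 15 d, against 1.03, 1.12 and 1.02 at 12 d, a difference of -0.01 (adjusted p = 0.95). The 2 derlin-2.2 probes, of a protein that exports misfolded proteins, went opposite ways, and PSOLI02741 rose by 0.21 (adjusted p = 0.023) while PSOLI00092 fell by 0.22 (adjusted p = 0.016). With MAD scaling the derlin differences were 0.08 and -0.09, and neither passed. As deposited, PSOLI02741 lost its call without 12 d replicate 1 (0.20, adjusted p = 0.070), 12 d replicate 3 (0.20, adjusted p = 0.058), 15 d replicate 2 (0.19, adjusted p = 0.079) or 15 d replicate 3 (0.18, adjusted p = 0.086), and PSOLI00092 without 12 d replicate 1 (-0.19, adjusted p = 0.064) or 15 d replicate 2 (-0.16, adjusted p = 0.081).

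Dehydration and stress response proteins rose in 4 of 13 probes and fell in 4, with a median of 0.13, or 0.02 with MAD scaling, where 1 fell and 1 rose. The second RD22 probe (PSOLI04811) had 0.99, 1.03 and 1.01 at 15 d, against 0.84, 0.86 and 0.93 at 12 d and did not pass (adjusted p = 0.097), so that the fall of PSOLI04742 was not seen on both. Of the jasmonate and oxylipin enzymes, OPR1 (PSOLI04604), a 12-oxophytodienoate reductase, had 1.78, 1.72 and 1.87 at 15 d, against 1.41, 1.33 and 1.50 at 12 d, a rise of 0.38 (adjusted p = 0.00036) that was 0.19 (adjusted p = 0.069) with MAD scaling. Another reductase of that name, OPR2 (PSOLI04233), had -1.40, -1.38 and -1.46 at 15 d, against -1.08, -1.12 and -1.06 at 12 d, and fell by 0.33 (adjusted p = 0.00035). A lipoxygenase (PSOLI00996), which oxidises fatty acids at the start of the pathway, had a difference of 0.19 (adjusted p = 0.058), and of 0.29 (adjusted p = 0.016) with MAD scaling, and passed as deposited without 12 d replicate 3 (0.27, adjusted p = 0.013). The cytochrome P450 74A (PSOLI00754), of the same pathway, had a difference of -0.02 (adjusted p = 0.87). Lipid metabolism and patellins rose in 4 of 13 and fell in 2, with a median of 0.06, or 0.09 with MAD scaling, where 0 fell and 4 rose. Only 1 of the rises, that of patellin-3, passed in both scalings. Photosynthesis probes fell in 5 of 7 and rose in 0, with a median of -0.26, or -0.19 with MAD scaling, where 4 fell and 0 rose. Of these, the light-harvesting protein LHCA5 (PSOLI04428) fell by 0.38 (adjusted p = 0.00018).

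**Figure D3:**
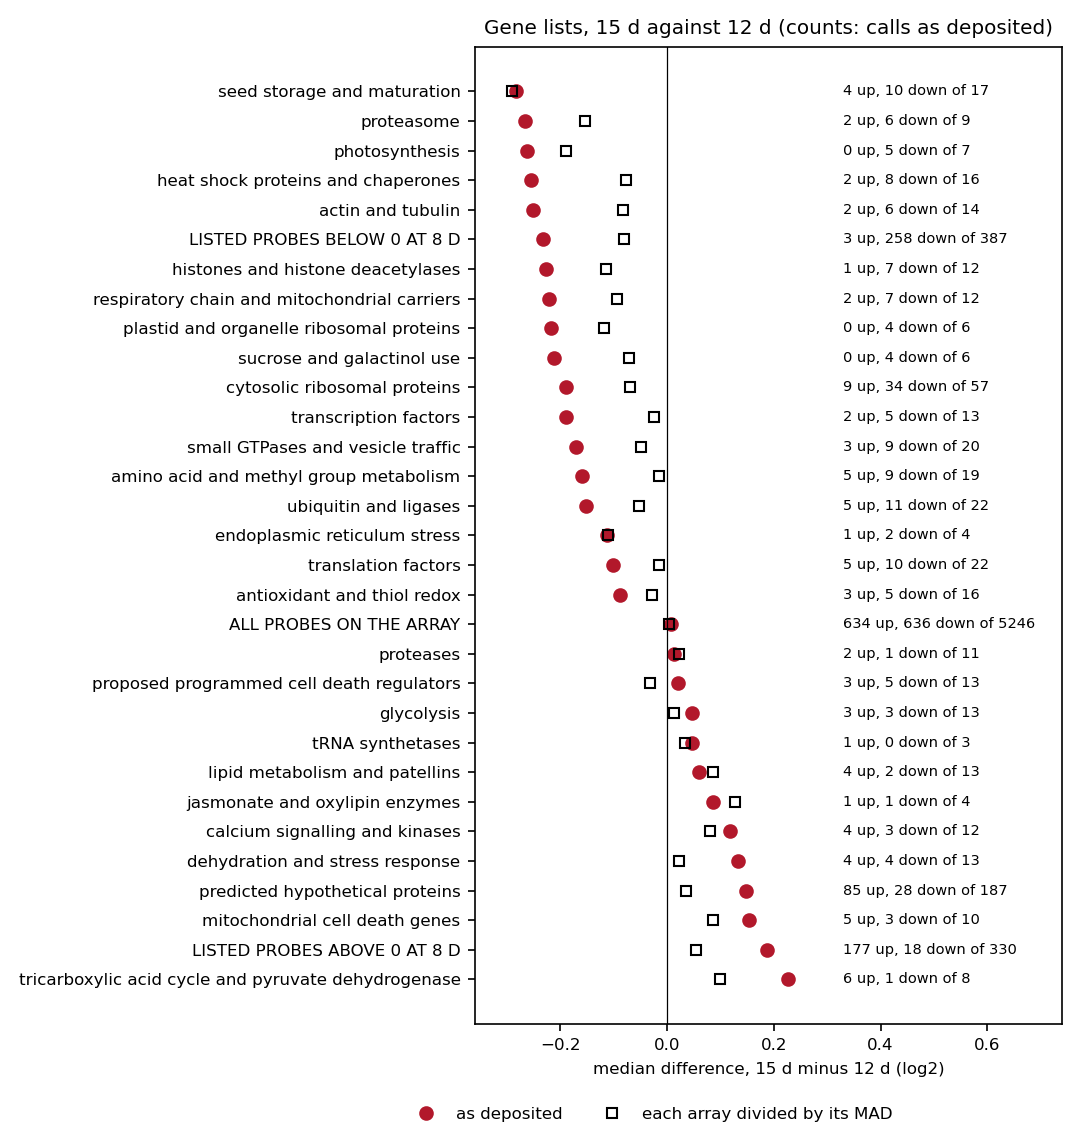
Median difference 15 d minus 12 d of each gene list (log2, x axis), as deposited (filled circles) and with each array divided by its MAD (open squares), with the number of probes called in each direction as deposited, and all probes and all listed probes by their sign at 8 d in capitals. The squares lie nearer to 0 for most lists. The medians of seed storage and maturation were -0.28 and -0.29, although MAD scaling made its falls below 0 smaller and those above 0 larger.

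The 187 probes named only as predicted hypothetical proteins were mostly above 0, in 155 cases at 15 d. Among all 187, 85 rose and 28 fell, with a median of 0.15, and with MAD scaling 30 rose and 26 fell, with a median of 0.04. In both scalings 28 rose and 15 fell. The median ratio of the 187 was 1.08 at 15 d, against 0.95 at 12 d. PSOLI00214 had 1.16, 1.09 and 1.08 at 15 d, against 0.55, 0.49 and 0.58 at 12 d, a rise of 0.57 (adjusted p = 6.1e-06), the largest of all listed probes. PSOLI01312 (-0.56) and PSOLI03997 (-0.54) fell further below 0, and PSOLI00037 fell back from above with 1.05, 1.02 and 1.09 at 15 d, against 1.41, 1.63 and 1.67 at 12 d, a difference of -0.52 (adjusted p = 6.1e-05).

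A small set of named probes turned back. In both scalings, 14 informatively named probes passed and moved against the sign of their 12 d ratio, 11 of them lower and 3 higher at 15 d. The 15 d arrays had the larger MAD, so dividing by it enlarges a move back towards 0. Passing with MAD scaling as well therefore adds little for these probes. RD22, Bax inhibitor 1 and provicilin B were among them, and their 12 d arrays were higher than both the 15 d and the 8 d arrays. The plastid photosystem I assembly protein ycf3 had 0.77, 0.68 and 0.76 at 15 d, against 1.16, 1.24 and 1.23 at 12 d on PSOLI00436, with a mean of 0.23 at 8 d. It fell by 0.47 (SE 0.075, adjusted p = 0.00039), with a difference of -0.57 under MAD scaling, and the second ycf3 probe (PSOLI01196) fell by 0.22 (adjusted p = 0.0087). An annexin-like protein (PSOLI02931), of a family that binds membranes in the presence of calcium, had 0.67, 0.62 and 0.69 at 15 d, against 1.06, 1.05 and 1.02 at 12 d, and fell by 0.38 (adjusted p = 0.00013). The ORF16-LacZ fusion protein (PSOLI00094), a product name with a bacterial reporter gene, had 0.96, 0.89 and 0.95 at 15 d, against 1.47, 1.59 and 1.50 at 12 d, and fell by 0.59 (adjusted p = 6.1e-06), and its 8 d mean had been 0.94. A name required a ratio of size 1 at some ageing time. RD22, Bax inhibitor 1, ycf3 on PSOLI00436, the annexin and the fusion protein had a mean of that size at 12 d alone. Their peak at 12 d was thus favoured by how the list was made.

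The 3 that turned upwards were below 0 at both times. Beside elongation factor 2 on PSOLI00844 and patellin-3, a senescence-associated family protein (PSOLI00790) had -1.19, -1.22 and -1.16 at 15 d, against -1.63, -1.49 and -1.46 at 12 d, a rise of 0.34 (SE 0.067, adjusted p = 0.0020). It was 0.48 with MAD scaling. Dividing by the larger MAD of the 15 d arrays enlarges any such move towards 0, as for RD22 (-0.71).

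**Figure D4:**
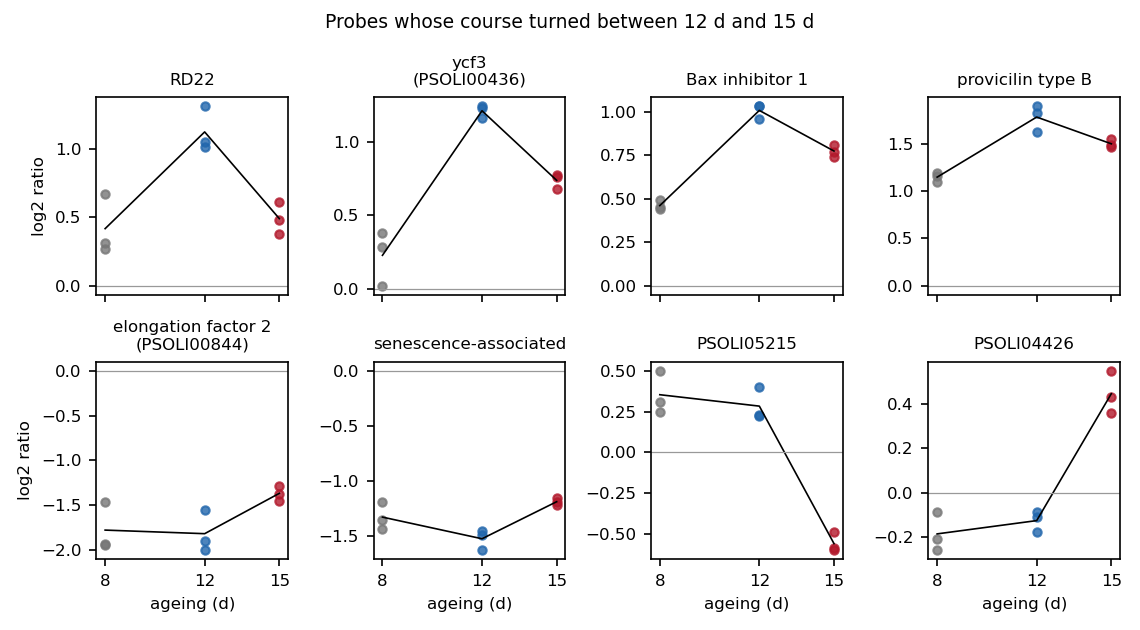
Log2 ratio as deposited, aged over non-aged, at 8, 12 and 15 d (x axis) on each of 3 arrays per time (points) and their mean (line), for 6 named probes and 2 unnamed ones. RD22, ycf3, Bax inhibitor 1 and provicilin B were highest at 12 d, and PSOLI05215 and PSOLI04426 changed sign between 12 d and 15 d. Named probes had to reach a size of 1 at some ageing time, and the means of RD22 and Bax inhibitor 1 did so at 12 d alone.

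The remaining probes were outside the study's list and have no product name here. Of these 4529 probes, 454 rose and 360 fell, and with MAD scaling 240 rose and 192 fell. The 3 largest rises on the whole array were among them. PSOLI01942 had 1.00, 0.87 and 0.85 at 15 d, against 0.43, 0.17 and 0.05 at 12 d, a rise of 0.69 (SE 0.081, adjusted p = 4.0e-05). PSOLI02585 had 0.64, 0.92 and 1.00 at 15 d, against 0.23, 0.24 and 0.33 at 12 d, a rise of 0.59 (adjusted p = 0.00015), and on both probes no 15 d array overlapped those of 12 d. PSOLI04426 had 0.36, 0.43 and 0.55 at 15 d, against -0.11, -0.18 and -0.09 at 12 d, a rise of 0.57 (adjusted p = 2.1e-05). At 8 d, PSOLI01942 and PSOLI02585 had been at 0.50 and 0.70, so that their lowest means were those of 12 d. PSOLI05215, the largest fall after the sucrose-binding protein and convicilin, had -0.60, -0.49 and -0.59 at 15 d, against 0.23, 0.40 and 0.22 at 12 d, and fell by 0.84 (SE 0.071, adjusted p = 3.0e-06).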

How the data were processed

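Oligonucleotide arrays with 2 colours were hybridised with RNA from aged and non-aged pea seeds, with 3 arrays for each of 8, 12 and 15 d of ageing. Per the labels and the study's methods, the authors corrected the background, normalised each array by print-tip loess, scaled arrays by their MAD, and deposited 1 log2 ratio per probe and array, in steps of 0.01. In the deposited values the MAD was equal among the 12 d arrays and among the 8 d arrays, but not between ageing times. Spot intensities were not used here, and the number of arrays limits the precision. All 5246 probes (5220 with PSOLI and 26 with PCPS numbers) were used and 0 values were missing. The direction, aged over non-aged, was taken from the signs in the study's list of ageing-responsive probes, which the 15 d means shared for 716 of 717 probes. Array medians lay between 0.01 and 0.02.

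The difference 15 d minus 12 d was tested with limma 3.58.1 in R 4.3.3 on all 9 arrays with 1 mean per ageing time, 6 residual degrees of freedom and moderated variances, two-sided, with Benjamini-Hochberg adjustment over all 5246 probes. A second fit used arrays divided by their MAD and multiplied by the mean MAD of 0.412. Each replicate was a separate pool of seeds. Product names came from the study's list of 717 probes, of which 491 had an informative name. Named probes were the 10 largest rises and 10 largest falls with an informative name and no overlap of arrays, the 3 largest of each over all probes, up to 4 members of each list called in both scalings, the 5 largest in each direction that ran against their 12 d sign, and all members of lists of up to 6 probes. A further 25 probes, among them the legumins, the type A provicilins, RD21, the second RD22 probe and probes that shared a product name with a probe above, were added once their values were known. The members and lists were chosen with earlier results of these data known. In simulated data with 50 of 5246 probes changed by each of 0.2, 0.3, 0.5 and 0.8, all differences of 0.5 and 0.8 were recovered with 8 false calls, or 9 with MAD scaling. Other scalings, centring, a dye term, a replicate block, a robust prior, fits of the 6 arrays alone, other thresholds and leaving out each array were tried.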

Additional observations from a re-analysis of the deposited data

Results flagged for a closer look

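For 25 probes, none of them in the study's list, the ratio lay on opposite sides of 0 at 15 d and 12 d, each past limma's test against non-aged seeds, and the difference passed in both scalings. Of these, 10 were lower and 15 higher at 15 d. The 6 with a difference of at least 0.5 in size are given here. Their arrays were all above 0 at one time and all below 0 at the other, which also held for others of the 25. PSOLI05215 had a difference of -0.843, PSOLI00940 of -0.72, PSOLI05214 of -0.647, PSOLI05211 of -0.643 and PSOLI04409 of -0.513, and PSOLI04426 had one of 0.573. PSOLI00940 was at -0.49, -0.51 and -0.55 at 15 d, against 0.25, 0.24 and 0.12 at 12 d. PSOLI05211 had -0.32, -0.30 and -0.18 at 15 d, against 0.42, 0.35 and 0.36 at 12 d, and PSOLI05214 had -0.34, -0.31 and -0.29 at 15 d, against 0.41, 0.26 and 0.33 at 12 d. These probes and PSOLI05215 have numbers close to each other, and the probes numbered between them, PSOLI05212 and PSOLI05213, had differences of -0.17 (adjusted p = 0.046 in limma) and -0.40 (adjusted p = 0.00021). The call of PSOLI05212 was lost without any 1 of 5 of the 6 arrays, with differences of -0.19 to -0.13, and also with MAD scaling (-0.17, adjusted p = 0.072), with a dye term, with a replicate block or with the 6 arrays alone. Except for PSOLI05215 and PSOLI04426, these probes were chosen after their values were seen, and their products are not named here.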

How the results depend on the processing

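The number of probes called moved with the scaling and with a minimum size. Against 634 higher and 636 lower as deposited, dividing each array by its MAD gave 305 and 309, and dividing by its SD, a setting chosen for the counts after seeing the data, gave 277 and 290. Requiring a difference of at least 0.25 in size left 309 and 319 as deposited, and 136 and 181 with MAD scaling. With MAD scaling and an adjusted p under 0.10, 451 were higher and 467 lower. Leaving out 1 array at a time gave 502 to 530 higher and 469 to 541 lower as deposited, and 174 to 245 higher and 205 to 260 lower with MAD scaling, where the fewest of each came without 15 d replicate 1, and 187 were higher without 15 d replicate 3. With fewer arrays the fit has fewer degrees of freedom. Centring, the 6 arrays alone, the dye term, the robust prior and leaving out the 26 PCPS probes kept both counts within 1.5 times their value in both scalings. Of the 119 named probes, 101 passed as deposited. With MAD scaling 19 calls were lost and 6 gained, and with SD scaling 33 were lost, 6 gained and 2 changed sign without passing, the trehalose probe PSOLI00835 at 0.0533 (adjusted p = 0.63 in limma) and elongation factor 2 on PSOLI04762 at 0.00869 (adjusted p = 0.96). Leaving out 1 array lost the call of 11 named probes at least once, and 4 others gained one. Any pairing of the arrays by replicate number was weak. Deviations from the group means of same-numbered 15 d and 12 d arrays correlated across probes at 0.0557, 0.000871 and 0.0403. For arrays of different numbers the correlations lay between -0.0488 and 0.00868. With the replicate number as a block, 628 were higher and 616 lower as deposited and 300 and 293 with MAD scaling, and PSOLI05212 alone of the named probes lost its call. The ratios carry no signal over background, so dim probes could not be told from bright ones. As deposited, the smallest difference that passed was 0.137 in size, and the largest that did not pass was 0.507.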
